A study of Mus musculus with 2 samples.

Results

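The Toll-like receptor genes are a family of pattern-recognition receptor genes, and 10 of them (Tlr1, Tlr2, Tlr4, Tlr5, Tlr6, Tlr7, Tlr8, Tlr9, Tlr12 and Tlr13) were read here in 1 comparison of sorted mouse cells. Every non-control spot was taken whose gene name, or the current symbol of its RefSeq accession, was one of these 10. That gave 20 spots of 11 probes on each array, and all 10 genes were found among 27238 named genes. The first cell pool, called the colon pool, held CX3CR1high CD11b+ CD11c+ cells of the large intestinal lamina propria of CX3CR1gfp/+ mice, whose Cx3cr1 gene carries a green fluorescent protein insertion on 1 allele. The second, called the blood pool, held Ly6c+ CD11b+ blood monocytes of C57BL/6J mice. Both were untreated as far as the labels say, both were pooled before labelling, and the age and number of the mice in each pool are not given in the sources used here. The design text gives n = 10 and n = 6 without saying what is counted. Each of 2 two-colour arrays carried both pools, and the second had the dyes exchanged. The arrays therefore measured 1 pool of each kind, no p-value could be computed, and every SD below is the technical spread between the 2 arrays. Tissue, strain and isolation differed together with the cell type and cannot be told apart. In pooled cells, fewer cells of a type and less RNA per cell cannot be told apart either.

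Toll-like receptors are membrane proteins with leucine-rich repeats that bind conserved microbial molecules and signal through a cytoplasmic TIR domain. Those of the plasma membrane bind lipopeptides, lipopolysaccharide or flagellin, whereas those of endosomes bind nucleic acids or, for Tlr12, a protozoan protein. Most signal through the adaptor Myd88 to NF-kappaB and interferon regulatory factors. Resident macrophages of the gut wall are known for taking up bacteria while answering Toll-like receptor ligands with little cytokine.

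Each gene was read by oligonucleotides of 60 bases made against its RefSeq transcript, and the labelling primed from the poly(A) tail. The last 30 bases of each probe (bases 31 to 60, 5′ to 3′, transcript sense) are printed because they show part of the stretch that gave the readings. Capitals mark AATAAA, the common polyadenylation signal, searched on the printed strand alone.
Tlr1: agcatccattaatgttaagctggttaacca
Tlr2: gggtaaatctgagaactgcAATAAAgtcct
Tlr4: taacatccttttccttcatcattctcattt
Tlr5: gaggtccagaaagctgcctctaagggctct
Tlr6: atgtgaaaacttgaaacttgggtttctaac
Tlr7, first probe: gttcaatgaAATAAAagcccagagaacttc
Tlr7, second probe: gttgtcatggctcagattggtgggaaatca
Tlr8: tatactatacctgctgggttgcctgagtct
Tlr9: tctgtcttactacaccgctatttggcaagt
Tlr12: caaatcctcagtaaacttgctaaattcatg
Tlr13: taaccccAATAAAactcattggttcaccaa

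AATAAA stood in the 60 bases of 3 of the 11 probes (27.3%), those of Tlr2 and Tlr13 and the first of Tlr7, and in 16.2% of the probes of all measured genes. The Tlr6 and Tlr13 probes and both Tlr7 probes held a stop codon in every sense reading frame, so these 4 cannot lie wholly in coding sequence. The same was true of 22.1% of the probes of all measured genes. No annotation of build mm9 was used here, so whether the other probes lie in coding or untranslated sequence is not stated. The longest run of bases that a probe shared with a probe of another of the 10 genes was 7. The probes of the closely related Tlr1 and Tlr6 therefore shared no longer run. Hybridisation to other transcripts was not tested.

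All 10 genes were well above background in both pools on both arrays, as flagged by the scanner software. Among the 15677 genes measured in at least 1 pool, 84.7% had that property. The 10 genes were chosen with earlier results of these data known, and Tlr3, which was not among them, did not have it. A gene was called when its normalized ratio reached 2-fold on both arrays in 1 direction (a log2 ratio of 1 or more, or -1 or less) and its brighter pool was flagged on both. By this rule Tlr12 and Tlr1 were higher in the colon pool (2 of 10), Tlr13 was lower (1 of 10) and the other 7 were not called. Of all measured genes 14.2% were called higher and 4.46% lower, 18.6% together, so 3 of 10 is read as a count of members and not as a property of the family. The median log2 ratio of the 10 genes was 0.27 beside 0.06 for all measured genes, and their median size regardless of sign was 0.61 beside 0.42. The lowest ratio was -1.59 and the highest 5.00.

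**Figure D1:**
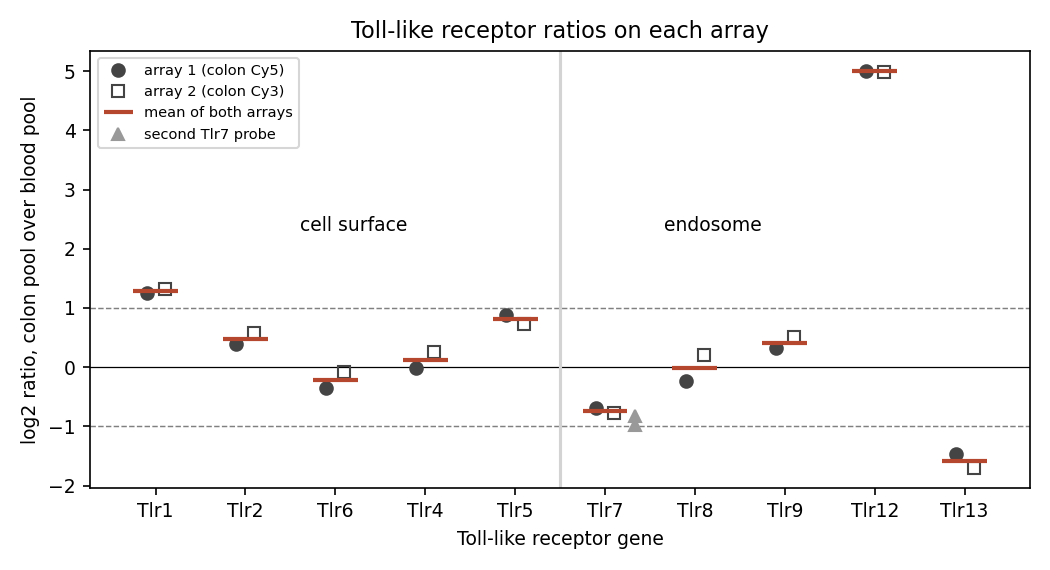
Log2 ratio of colon over blood (vertical axis) for the 10 Toll-like receptor genes, with cell-surface receptors on the left and endosomal receptors on the right. Circles are array 1, squares array 2, bars their mean, triangles the second Tlr7 probe on each array, and dashed lines mark 2-fold. Tlr12 (5.00) stands far above the others, Tlr1 (1.28) lies above the upper line on both arrays and Tlr13 (-1.59) below the lower one.

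The surface receptors were read first. Tlr2 forms heterodimers with Tlr1 or Tlr6 that bind bacterial lipopeptides. The Tlr1 probe (chromosome 5, 65316115 to 65316174, minus strand, mouse build mm9) gave mean spot intensities of 1570 in the colon pool and 454.8 in the blood pool on array 1, where the colon pool carried Cy5. On array 2, where it carried Cy3, the colon pool read 647 and the blood pool 910.5. The raw order thus turned with the dyes for Tlr1, and raw intensities are comparable neither between dyes nor between probes. After the intensity-dependent fit on each array, the log2 ratio was 1.25 on array 1 and 1.32 on array 2. The mean was 1.28 ± 0.05 (SD, 2 arrays), which is 2.44-fold higher in the colon pool. The fit takes out any trend with intensity, whether it follows the dyes or the pools. Of all measured genes 88.3% had a lower ratio. With median centring in place of the intensity-dependent fit the ratio was 0.67, from 1.51 and -0.16 on the arrays, and Tlr1 was not called.

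Tlr6 (chromosome 5, 65344365 to 65344424, minus strand, mm9) lies 28190 bases from the Tlr1 probe and was not called, at -0.22 ± 0.19. Its intensities were 1300 (colon) and 1168 (blood) on array 1, and 550.8 and 2206 on array 2. The ratio of Tlr1 exceeded that of Tlr6 by 1.60 on array 1 and 1.41 on array 2, or 1.504 ± 0.14 on the log2 scale. This distance kept its size under all 5 ways of processing the intensities, from 1.504 to 1.60, including median centring (1.54). The 2 partner genes of Tlr2 therefore differed in their ratio by more than the spread between the arrays, whichever level the arrays were centred on.

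Tlr2 (chromosome 3, 83640344 to 83640403, minus strand, mm9) was printed in 10 spots per array, which gives the only view of spot error among the 10 genes. On array 1 the colon pool ran from 15812 through a median of 18246 to 21803 and the blood pool from 7951 through 9368 to 10983. On array 2 the colon pool ran from 5969 through 7087 to 7939 and the blood pool from 18543 through 22407 to 25311. The raw ranges of both pools do not overlap on either array, with the Cy5-labelled pool the brighter one both times. Normalized ratios of single spots ran from 0.35 to 0.42 on array 1 (SD 0.024) and from 0.54 to 0.60 on array 2 (SD 0.026). Both spot SDs are smaller than the distance between the arrays, and the mean of 0.48 ± 0.13 was not called. Median centring turned it to -0.30, so the direction of Tlr2 rests on the normalization.

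Tlr4, the lipopolysaccharide receptor (chromosome 4, 66503470 to 66503529, plus strand, mm9), was not called at 0.12 ± 0.19. The colon pool read 423.2 and the blood pool 300.1 on array 1, and 204.9 and 506.5 on array 2. The normalized ratio was -0.02 on array 1 and 0.26 on array 2. Its sign also turned under median centring (-0.34) and with the scanner software's ratio (-0.23). No direction can be given for Tlr4.

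Tlr5, the flagellin receptor (chromosome 1, 184906031 to 184906090, plus strand, mm9), was a dim probe with a blood reading of 90.5 over a local background of 44 on array 1. The colon pool read 251.1 there, and on array 2 the pools read 123.5 (colon) and 152.1 (blood). Its ratio was positive on both arrays (0.88 and 0.73) without reaching 2-fold, at 0.81 ± 0.11. The offset added to the intensities compresses the ratios of dim probes, and with the smaller offset of 16 it read 1.05, from 1.13 and 0.96. It stayed positive in every alternative tried, from 0.61 to 1.05, and was called in none of those that kept the 2-fold rule.

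**Figure D2:**
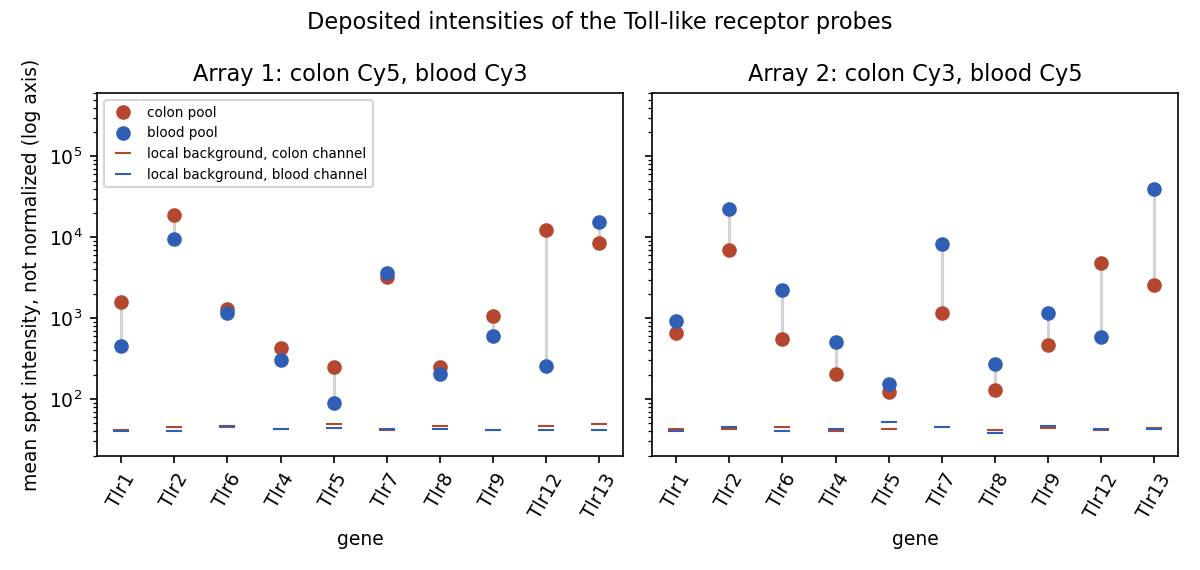
Deposited mean spot intensity (vertical log axis, not normalized) of the chosen probe of each gene, with the colon pool in red and the blood pool in blue. Array 1 is on the left and array 2, with the dyes swapped, on the right, and short bars give the local background of each channel. Pools are to be compared within a gene and not between genes. Tlr12 is brighter in the colon pool and Tlr7 and Tlr13 in the blood pool in both panels, whereas the order of the other 7 genes turns with the dyes.

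Among the endosomal receptors the largest ratio of the family was that of Tlr12. Tlr12 works with Tlr11 in the recognition of a profilin of Toxoplasma. Its probe (chromosome 4, 128292690 to 128292749, minus strand, mm9) read 12257 in the colon pool and 252.7 in the blood pool on array 1, and 4838 and 579.6 on array 2. The colon pool was the brighter one on both arrays, whichever dye it carried. The log2 ratio was 5.01 and 4.99, or 5.00 ± 0.02, which is 32-fold higher in the colon pool. Of the 15677 measured genes 70 had a higher ratio (0.447%). Under the alternatives it ran from 4.32 with median centring to 5.17 with the offset of 16, and was called in all of them.

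Tlr13 detects a conserved sequence of bacterial ribosomal RNA. Its probe (chromosome X, 103355773 to 103355832, plus strand, mm9) read 8473 in the colon pool and 15608 in the blood pool on array 1, and 2585 and 39351 on array 2. The blood pool was brighter under both dye assignments. The log2 ratio was -1.47 and -1.70, or -1.59 ± 0.17, which is 3-fold lower in the colon pool. Of all measured genes 2.09% had a lower ratio. It ran from -2.36 (median centring) to -1.47 (array 1 alone) under the alternatives and was called in all of them that kept the 2-fold rule, but in neither direction at 4-fold.

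Tlr12 and Tlr13 belong to the same branch of the family, together with Tlr11. The ratio of Tlr12 exceeded that of Tlr13 by 6.58 ± 0.15, and this distance ran from 6.58 to 6.81 over 5 ways of processing. Tlr11, which was not one of the 10 genes, was a dim probe (81.3 and 102.2 on array 1 and 67.9 and 158.4 on array 2, colon and blood) at -0.54 ± 0.21. It was not called, although with the scanner software's ratio it read -1.80 and was called lower. Tlr12 and its partner gene Tlr11 thus lay 5.54 ± 0.23 apart, and from 4.95 to 6.96 over the 5 ways. The probe of Tlr3, a receptor of double-stranded RNA, was not well above background in either pool on either array, so no ratio is given for it. The differences within pairs of receptor genes were computed for 4 pairs in all, picked for shared partners, neighbourhood or branch of the family.

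Tlr7, a receptor of single-stranded RNA, had 2 probes on chromosome X (163742863 to 163742922 and 163743146 to 163743205, minus strand, mm9). The brighter probe read 3227 (colon) and 3610 (blood) on array 1, and 1145 and 8165 on array 2. Its ratio was -0.69 and -0.78, or -0.73 ± 0.06, and the second probe gave -0.97 and -0.83, or -0.90 ± 0.10. The blood pool was brighter for both probes on both arrays, yet neither reached 2-fold. The ratio lay below 0 in every alternative tried, down to -1.45 with median centring, without a call in those that kept the 2-fold rule.

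Tlr8, also a receptor of single-stranded RNA (chromosome X, 163683356 to 163683415, minus strand, mm9), lies 59447 bases from the brighter Tlr7 probe. It was dim, with 248.2 (colon) and 202.9 (blood) on array 1, and 130 and 269.6 on array 2. The normalized ratio changed sign between the arrays (-0.23 and 0.20), for a mean of -0.02 ± 0.30, and no direction can be given. The ratio of Tlr7 lay below that of Tlr8 on both arrays, by -0.46 and -0.97 (mean -0.72 ± 0.36), with means from -1.13 to -0.47 over the ways of processing. Tlr9, the receptor of unmethylated CpG DNA (chromosome 9, 106128979 to 106129038, plus strand, mm9), read 1062 and 595 on array 1 and 464.1 and 1157 on array 2, colon and blood. It was not called at 0.41 ± 0.13, and median centring turned it to -0.19.

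**Figure D3:**
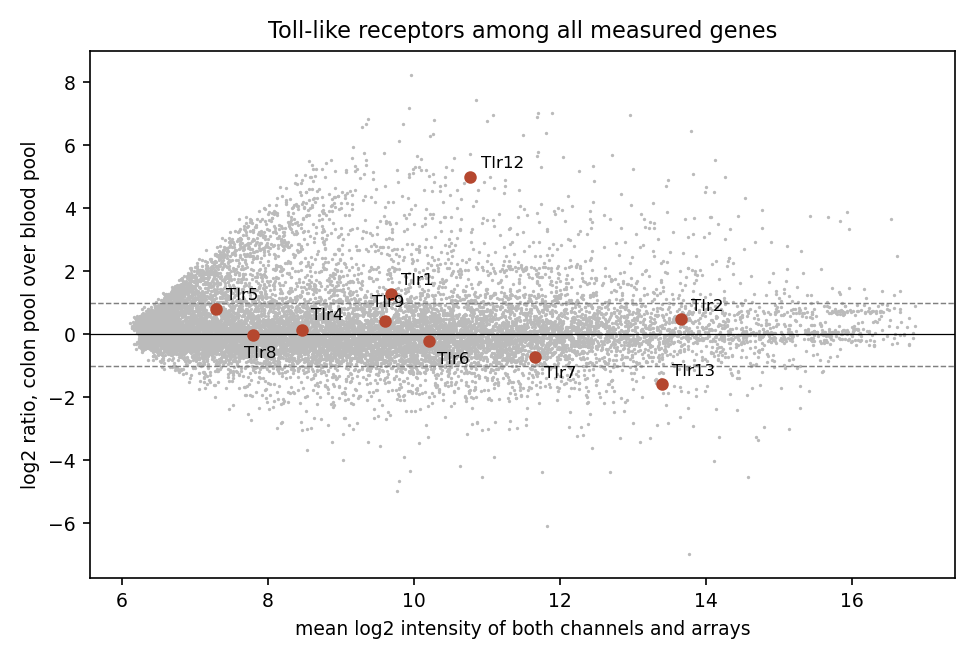
Log2 ratio of colon over blood (vertical axis) against mean log2 intensity (horizontal axis) for 15677 measured genes in grey and the 10 Toll-like receptor genes in red, with dashed lines at 2-fold. Tlr12 (5.00) lies among the highest genes and Tlr13 (-1.59) among the lower ones, while Tlr4, Tlr6, Tlr8 and Tlr9 lie inside the dashed lines.

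Taking the family by these values, 5 of the 10 genes (Tlr2, Tlr4, Tlr6, Tlr8 and Tlr9) stayed within 1.5-fold on both arrays. The order of the ratios was Tlr12, Tlr1, Tlr5, Tlr2, Tlr9, Tlr4, Tlr8, Tlr6, Tlr7 and Tlr13. Neighbours from Tlr2 to Tlr6 in this order lay closer than the sum of their SDs. Surface receptors had a median of 0.48 with 1 of 5 called higher and 0 lower, and endosomal receptors a median of -0.02 with 1 of 5 higher and 1 lower. Of all measured genes 14.2% were called higher and 4.46% lower. With median centring the middle values were -0.30 (Tlr2, surface) and -0.32 (Tlr8, endosomal), so the distance between the medians rests on the normalization.

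Centring bears on most of these values. The median of all measured genes moved from 0.06 to -0.28 with median centring and to -0.12 with the scanner software's ratios. Relative to it, Tlr12 read 4.94, 4.60 and 5.28, Tlr1 1.22, 0.96 and 1.28, and Tlr13 -1.65, -2.08 and -1.53 under the reported fit, median centring and the software. Tlr7 read -0.80, -1.17 and -0.75 in the same order. Median centring leaves in place the trend of each array with intensity, which can follow the dyes or the pools. The SD between arrays of the 10 genes was then 0.51 to 1.73, beside 0.02 to 0.30 in the reported fit. How much of the trend followed the dyes and how much the pools was not tested. For 6 of the 10 genes (Tlr1, Tlr5, Tlr6, Tlr7, Tlr12 and Tlr13) the sign was the same under all alternatives tried.

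**Figure D4:**
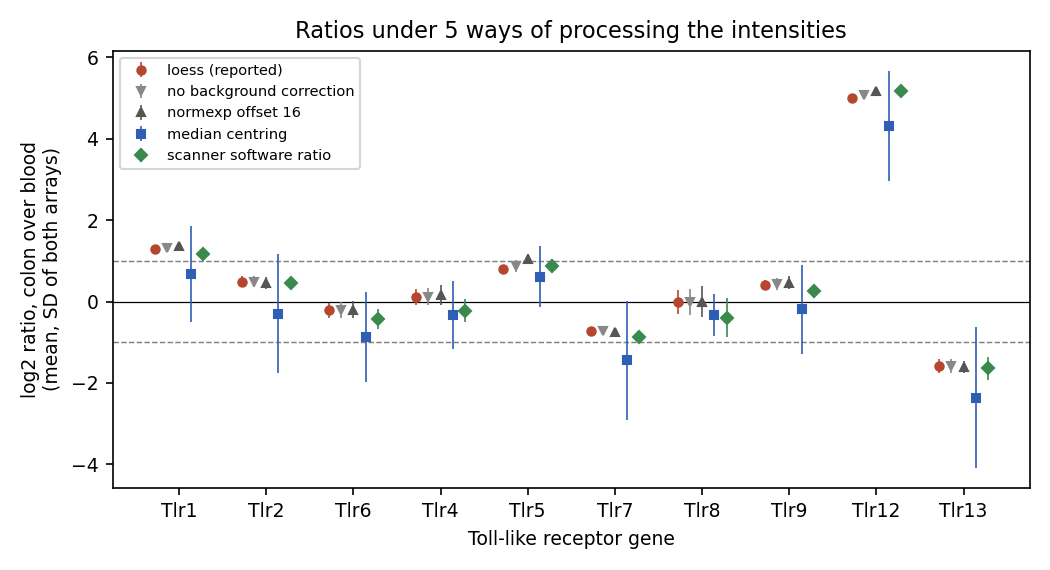
Log2 ratio of colon over blood for the 10 genes under 5 ways of processing, as the mean of 2 arrays with the SD between them as error bars and dashed lines at 2-fold. Median centring (blue squares) gives the lowest mean for all but Tlr8 and the widest error bars, while Tlr12 stays above and Tlr13 below the dashed lines in all 5.

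The other genes of the pathway were read from lists by role, with 81 of 84 genes measured. These lists were chosen with earlier results of these data known, so their shares only describe the genes listed. Higher in the colon pool were 32 of the 81 (39.5%) and lower 2 (2.47%), beside 14.2% and 4.46% of all measured genes. Genes that Toll-like receptor signalling is known to induce made up 12 of the 32. With the scanner software's ratios 33 of the 81 were higher (40.7%) and 8 lower (9.88%), beside 20.2% and 13.3% of all measured genes. With median centring 15 were higher (18.5%) and 2 lower, beside 7.26% and 3.56%. Their median log2 ratio was 0.40.

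Among all measured genes 14.2% were called higher and 4.46% lower. Of the co-receptors and accessory proteins of surface receptors 2 of 6 measured genes were higher and 0 lower. They were Cd36, a scavenger receptor that assists Tlr2 with Tlr6 (3.26 ± 0.07), and Cd14, which hands lipopolysaccharide to Tlr4 (2.80 ± 0.14). The Cd14 probe read 106304 (colon) and 10432 (blood) on array 1 and 44459 and 31759 on array 2. The colon pool was the brighter one under both dye assignments, but with median centring Cd14 read 1.96 and was not called. Ly96 (MD-2), the subunit of the Tlr4 complex that binds the lipid, read 0.07 ± 0.02. Cd180 and Ly86, which form a related complex, read -0.01 ± 0.17 and 0.20 ± 0.03. Lbp, the serum lipopolysaccharide-binding protein, read -0.63 ± 0.10, and the Tril probe was not well above background.

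Of 8 genes of chaperones and transport 2 were higher and 0 lower, beside 14.2% and 4.46% of all measured genes. Slc15a3, a peptide and histidine transporter of lysosomes, read 2.17 ± 0.17, and Hsp90b1 (gp96), the chaperone that folds most Toll-like receptors, 1.28 ± 0.07. With median centring neither was called, at 1.43 and 0.48. Unc93b1, which escorts the endosomal receptors out of the endoplasmic reticulum, was not called at 0.61 ± 0.11, and Slc15a4, the relative of Slc15a3, read -0.92 ± 0.26. Of the lysosomal proteases that cut endosomal receptors into their active form 4 of 5 were higher, with a median of 2.71. They were Lgmn (3.94 ± 0.05), Ctsl (3.24 ± 0.20), Ctsk (2.71 ± 0.03) and Ctsb (2.07 ± 0.11), while Ctss was not called at 0.13 ± 0.47. With median centring Ctsb read 1.21 and was not called, and the other 3 still were.

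Among 5 measured adaptors 1 was called and among 19 kinases, ubiquitin ligases and scaffolds 4, beside 18.6% of all measured genes. The adaptor was Pik3ap1 (BCAP), which links the receptors to PI3-kinase, higher at 1.38 ± 0.24 but not called with median centring (0.95). Myd88 read -0.41 ± 0.01, Tirap -0.34 ± 0.13, Ticam1 (TRIF) 0.11 ± 0.06 and Ticam2 -0.44 ± 0.28, none of them called, and Sarm1 was not well above background. Of the kinases, ligases and scaffolds 3 were higher and 1 lower (median 0.02). The higher ones were Tank, a scaffold of Tbk1 (2.45 ± 0.17, and 1.93 from its other probe), the ligase gene Peli1 (1.61 ± 0.09) and Traf3 (1.51 ± 0.14). With median centring Peli1 (0.865) and Traf3 (0.77) were not called. The lower one was Ikbkb, the IKK-beta kinase (-1.55 ± 0.06), with 986.6 (colon) and 1988 (blood) on array 1 and 381.9 and 4514 on array 2.

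Of 14 inhibitors of the pathway 6 were higher and 0 lower (median 0.45), beside 14.2% and 4.46% of all measured genes. The highest were Socs1 (2.24 ± 0.02), Tnip1 (2.04 ± 0.02, and 1.91 from its other probe), the ubiquitin-editing enzyme gene Tnfaip3 (1.91 ± 0.02) and the NF-kappaB inhibitor gene Nfkbia (1.34 ± 0.08). With median centring none of these 4 was called, at 1.70, 1.25, 1.11 and 0.485 in the same order. Irak3 (IRAK-M) and Sigirr, which restrain signalling at the receptor complex, were not called at -0.78 ± 0.12 and -0.94 ± 0.14. Among 10 transcription factors Relb (2.18 ± 0.16) and Nfkb2 (1.30 ± 0.01) were higher and Irf7 (-2.45 ± 0.05) lower. With median centring Relb (1.48) and Nfkb2 (0.60) were not called. Irf5, which acts downstream of Myd88, read -0.99 ± 0.10 and was not called.

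Among all measured genes 14.2% were called higher and 4.46% lower. Of 14 measured genes that Toll-like receptor signalling is known to induce 12 were higher and 0 lower (median 3.02). The highest were the interferon beta gene Ifnb1 (7.19 ± 0.37), the chemokine genes Cxcl1 (6.96 ± 0.17) and Ccl4 (6.44 ± 0.02) and Il6 (4.98 ± 0.13). With median centring these genes were still called, at 6.57, 6.27, 5.64 and 4.35 in the same order. Only 15 of the 81 pathway genes were then called higher, and the calls of the other induced genes under median centring are not given here. Tnf read 2.36 ± 0.07 and the costimulatory receptor gene Cd40 2.78 ± 0.03. The 2 genes not called were Nos2 (0.04 ± 0.16, with the blood pool well above background on array 1 alone) and Il23a, and Il12a was not well above background. Il12b and Il23a were in the blood pool not well above background on either array. With the dim blood reading taken as it stood, Il12b was 5.09-fold and Il23a 1.32-fold higher in the colon pool. On arrays 1 and 2 the log2 ratios were 2.39 and 2.31 for Il12b and 0.25 and 0.55 for Il23a. The fold values are means of both arrays and not strict lower bounds. Other signals than Toll-like receptors also induce these genes, and the list was assembled with earlier results of these data known.

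**Figure D5:**
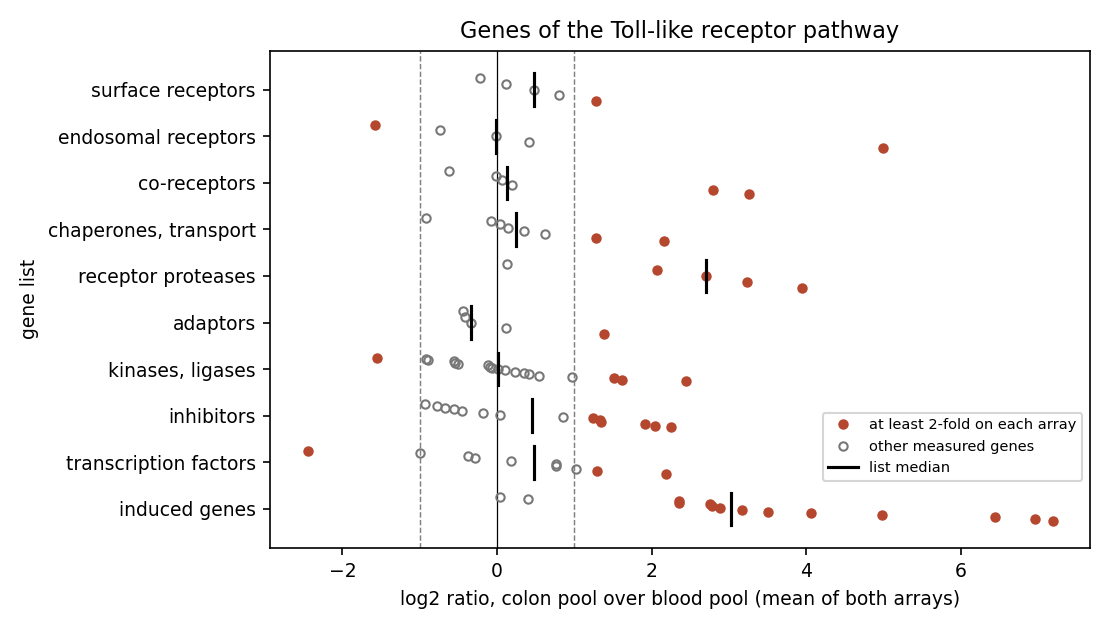
Log2 ratio of colon over blood (horizontal axis, mean of 2 arrays) for the measured genes of each list, with lists as rows. Filled points are genes at least 2-fold different on each array, open points the other measured genes, black bars the list medians and dashed lines 2-fold. Adaptors (median -0.34) and kinases (0.02) lie around 0, while the receptor proteases (2.71) and the induced genes (3.02) lie to the right.

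Of the 4 genes of the sort, Itgax (CD11c) was higher in the colon pool (3.35 ± 0.08) and Ly6c1 lower (-3.28 ± 0.09), while Cx3cr1 (0.10 ± 0.25) and Itgam (CD11b, -0.465 ± 0.33) were not called. In the colon pool alone 1 Cx3cr1 allele carried the insertion, and its effect on the Cx3cr1 ratio was not tested. Of 10 macrophage markers 7 were higher in the colon pool (C1qa, C1qb, C1qc, Mrc1, Mertk, Cd163 and Adgre1). Csf1r (0.95 ± 0.34), Cd68 (0.80 ± 0.01) and Fcgr1 (-0.62 ± 0.10) were not called. All 8 Ly6C-high monocyte markers were lower. Beside these lists and those below stand 14.2% called higher and 4.46% called lower among all measured genes. Of cells known to express Toll-like receptors, the B and plasma cell list had 5 of 6 measured markers higher, with Pax5 not well above background and Blk well above it in the colon pool on array 1 alone. Its summed intensity was 42333 and 16605 in the colon pool and 1941 and 4295 in the blood pool on arrays 1 and 2. Such sums are of raw intensities, follow the brightest probes and are comparable only within a dye, which the colon pool on 1 array shares with the blood pool on the other. Jchain alone gave 36394 of the 42333. The plasmacytoid dendritic cell list had 4 of 8 higher and 0 lower, with sums of 36879 and 13355 (colon) and 14066 and 35420 (blood). For Siglech the probes disagreed, with 0.63 ± 0.02 from the brighter probe and 3.85 from the other (3.68 and 4.01 on the arrays), both well above background in both pools. The conventional dendritic cell list had 1 of 7 higher (Ccr7) and 1 lower (Flt3, whose other probe read -1.10), with a median of 0.13, Xcr1 not well above background and sums of 12742 and 5383 against 3912 and 8045. The neutrophil list had 3 of 8 lower (S100a8, S100a9 and Cxcr2), with Ngp not well above background and sums of 11943 and 3510 against 77242 and 140351. On array 1 S100a8 and S100a9 gave 17918 and 58376 of the 77242 in the blood pool. Ly6g, Mpo, Elane, Camp and Ltf were not called, at ratios from -0.33 (Camp) to 0.47 (Elane). Fibroblast markers were higher for 6 of 6 (sums 134660 and 56389 against 901 and 2024), epithelial ones for 6 of 8 (7862 and 3245 against 638 and 899), T cell ones for 5 of 7 (6265 and 2436 against 980 and 1297) and endothelial ones for 2 of 6 (5727 and 2497 against 1463 and 2622). The part of these cells in the receptor ratios was not tested.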

How the data were processed

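RNA of both pools (25 ng each) was labelled with Cy3 or Cy5 and hybridised to 2 Agilent arrays of design 026655, per the labels and the file headers. The deposited files give the mean spot intensity and the median local background per channel, without normalization, and the log10 ratio, red over green, computed by the software (Feature Extraction 10.7.3.1 per the file headers, 10.5.1.1 per the submitters' processing notes). The value table deposited by the authors equals that log10 ratio turned to colon over blood, with a largest difference of 4.81e-08. Its centring is the software's.

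Intensities were corrected by normexp (offset 50) and normalized by loess within each array, giving controls and outlier spots weight 0 (limma 3.58.1, R 4.3.3). Spots of a probe were averaged, array 2 was turned, and the brightest probe gave a gene's value. Names came from RefSeq accessions (GRCm38 table, names only), which matched all 20 receptor spots. Between 52.9% and 59.6% of spots were well above background, and none was saturated. The 2 arrays of the same pools are 1 replicate, so genes were called by size without a test, and the number of arrays limits the precision. Every receptor was to be named, and of each list up to 4 called genes per direction, or the 2 brightest where none was called. The uncalled pathway genes named in the text, and Tnf, Cd40 and Il12b, were chosen after their values were seen. Members and lists were chosen with earlier results of these data known. On 43020 simulated spots of the colon against the blood pool, 98 of 100 changed by 1.5 (log2) and 100 of 100 changed by 3 were called, and 0 of 42820 unchanged ones. The changed spots were bright with balanced directions. The simulated noise was small beside the 2-fold rule and the simulated dye effect was the same at all intensities. The simulation therefore cannot show how often unchanged genes of the real arrays are called.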

Additional observations from a re-analysis of the deposited data

How the results depend on the processing

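Median centring left 1 receptor gene called higher (Tlr12), a receptor median of -0.31 and 15 pathway genes higher (18.5%, beside 7.26% of all measured genes). The scanner software's ratios and the deposited value table, which hold the same numbers, gave a receptor median of 0.012 and 8 pathway genes lower (9.88%, beside 13.3% of all measured genes). A 1.5-fold threshold gave 3 receptor genes and 37 pathway genes higher, beside 3493 of the 15677 measured genes. It gave 2 receptor genes and 8 pathway genes lower, beside 1725 of the 15677. At 4-fold 1 receptor gene was higher (Tlr12) and 0 were lower. Of the pathway genes 22 were then higher and 1 lower, beside 954 and 130 of all measured genes. With either array alone 2 receptor genes were higher and 1 lower, and the receptor median was 0.15 to 0.38. Of the pathway genes 33 were then higher (40.7%) and 4 lower (4.94%). The shares of all measured genes were 16.8% higher and 5.48% lower with array 1 alone, and 15.3% and 5.4% with array 2 alone. The counts of receptor genes called were the same (2 higher, 1 lower) without background correction, with an offset of 16, with Aquantile scaling (which leaves ratios as they are), with the mean over probes, and whether dim probes were kept or both pools had to be well above background. Over these settings 8.17% to 17.2% of all genes were called higher and 2.57% to 5.47% lower. No paired analysis was possible because both arrays hold the same 2 pools. Precision is limited by 2 arrays of 1 replicate and, for Tlr5 and Tlr8, by low signals, whose ratios the offset compresses.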
